A study of Mus musculus with 9 samples.

Results

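Ribosome footprints on 10 macrophage marker genes were followed in cultured mouse preadipocytes before and during beige adipocyte differentiation. The genes were C1qa, C1qb, C1qc, Cd14, Csf1r, Adgre1, Cd68, Mrc1, Ptprc and Tyrobp, taken by their symbols from the table of footprint counts. They are 10 of 55359 genes in that table and 10 of the 14714 genes with enough counts to be tested, so all 10 passed the filter on low counts. Adipocyte precursors had been isolated from the inguinal white fat of mice, which lies under the skin. The study asked how translation changes as such cells become beige adipocytes, which are fat cells able to burn lipid for heat. It had 3 groups of 3 libraries: day 0, not induced; day 4; and day 8. The day 4 and day 8 cells had 2 days of induction medium with dexamethasone (2 μg/mL), isobutylmethylxanthine (0.5 mmol/L), indomethacin (125 μmol/L), insulin (5 μg/mL), triiodothyronine (1 μmol/L) and rosiglitazone (0.5 μmol/L). Maintenance medium without the first 3 of these agents followed. The labels give no strain, age or sex of the mice, and they name the day 0 cells only as preadipocytes of that depot.

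Adipose tissue holds resident macrophages beside the fat cell precursors, and macrophages can attach to a culture dish along with them. Macrophages take up dying cells and debris, sense bacterial products and secrete the recognition subunit of the classical complement pathway. They depend on the growth factor CSF1, or on IL-34, for survival, and both act through the receptor that Csf1r encodes. None of these markers is wholly private to macrophages: other leukocytes, lymphatic endothelium and fibroblasts use some of them.

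Each library held between 30823028 and 38994892 counts, and the 10 markers together took 681 to 3036 of them, and 19.5 to 84.7 CPM by library total. Levels below are CPM (counts scaled to a common library size, after correction for composition), with replicates 1, 2 and 3 in that order. Of adipocyte genes, 9 of 9 tested were called higher at day 4 and at day 8 than at day 0, where 29.8% and 34.2% of all tested genes were. A list of 10 preadipocyte genes summed to at least 10780 CPM in each library, most of it collagen. In day 8 replicate 1, the lowest, Col1a1, Col3a1 and Col15a1 had 5217, 3085 and 1755 CPM. Pdgfra and Pdgfrb had 160 and 250 CPM there, and Dlk1, Dpp4 and Cd34 had 5.39, 1.23 and 2.01 CPM. On the first principal component of all tested genes, day 4 replicate 2 lay at 12.8 against 64.8 and 65.4 for the others of its day, and day 8 replicate 3 at 62.1 against 85.5 and 85.8. Marker results without both of these libraries are given below. The labels do not say whether replicates are separate mice, preparations or dishes, and p-values therefore cover the spread between libraries and no more. Footprints depend on both mRNA abundance and ribosome loading, and in bulk lysates fewer cells of a type and less RNA per cell cannot be told apart.

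The promoters of C1qb, C1qc and Mrc1 are shown because 2 of these genes are neighbours that moved together and Mrc1 followed another course. They come from RefSeq (GRCm38.p6, an earlier assembly than the one used for counting), 250 bases before to 50 bases after the gene start, written 5′ to 3′ along the gene. Capitals mark AGGAAGT, searched on both strands, so that ACTTCCT is the same motif on the other strand. ETS family factors, among them the myeloid factor PU.1 encoded by Spi1, bind motifs of this kind. The motif was picked with these promoters in view, and a match is a description of letters only. It was present in 3072 of 32851 promoters of that length in the table (9.35%). The promoter of C1qb lay at chr4:136886151-136886450 on the minus strand with a match at -53 from the gene start, and that of C1qc at chr4:136892865-136893164 on the minus strand with a match at -195. That of Mrc1 lay at chr2:14229164-14229463 on the plus strand with a match at -211. Of the other markers, Ptprc had matches too and Cd68 had none, so that 4 of the 5 markers searched held the motif. Marker promoters on a chromosome left out of this search were not counted. The share over all promoters included that chromosome, so the sets differ. Spi1 itself had 2 to 45 counts per library.
C1qb: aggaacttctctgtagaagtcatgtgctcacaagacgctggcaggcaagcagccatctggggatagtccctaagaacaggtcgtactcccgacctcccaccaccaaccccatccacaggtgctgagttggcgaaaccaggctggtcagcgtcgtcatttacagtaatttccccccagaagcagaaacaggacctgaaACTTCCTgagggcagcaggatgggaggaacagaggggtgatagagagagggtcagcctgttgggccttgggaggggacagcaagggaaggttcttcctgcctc
C1qc: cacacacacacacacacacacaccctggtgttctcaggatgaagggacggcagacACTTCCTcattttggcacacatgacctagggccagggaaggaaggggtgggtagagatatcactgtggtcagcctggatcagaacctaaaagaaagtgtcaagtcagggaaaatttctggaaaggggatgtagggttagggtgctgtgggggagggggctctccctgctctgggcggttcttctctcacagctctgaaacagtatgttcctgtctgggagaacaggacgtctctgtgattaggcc
Mrc1: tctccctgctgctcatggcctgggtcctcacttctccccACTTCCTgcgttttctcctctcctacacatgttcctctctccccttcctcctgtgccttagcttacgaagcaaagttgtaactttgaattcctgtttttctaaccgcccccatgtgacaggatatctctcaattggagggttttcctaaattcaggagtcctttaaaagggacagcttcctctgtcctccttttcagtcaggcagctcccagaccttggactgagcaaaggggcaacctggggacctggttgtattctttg

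The markers did not behave as 1 block. By day 8 the C1q genes, Cd14, Csf1r and Tyrobp were lower than at day 0, while Cd68, Adgre1, Ptprc and Mrc1 did not pass the test. Mrc1 stood highest at day 4. In the comparison of day 8 with day 0, 6 of 10 markers were called lower by edgeR's quasi-likelihood test at an adjusted p under 0.05. Of all tested genes 67.7% were called in that comparison, 34.2% higher and 33.5% lower. At day 4 against day 0, 1 of 10 markers was called, lower, where 58.2% of all tested genes were called, 29.8% higher and 28.4% lower. At day 8 against day 4, 4 of 10 were called, all lower, against a background of 31.8% called, 14.7% higher and 17.1% lower. The median log2 fold change of the 10 markers was -0.25 at day 4 against day 0, -1.45 at day 8 against day 0 and -0.69 at day 8 against day 4. Over all tested genes the medians were -0.02, -0.01 and -0.02. The libraries of both groups did not overlap for 4, 7 and 5 markers in these comparisons, against 64.9%, 76.0% and 45.2% of all tested genes. The counts of calls followed the library set: without day 4 replicate 2 and day 8 replicate 3, they were 3, 8 and 4, where 66.6%, 70.9% and 36.5% of all genes tested in that setting were called.

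**Figure D1:**
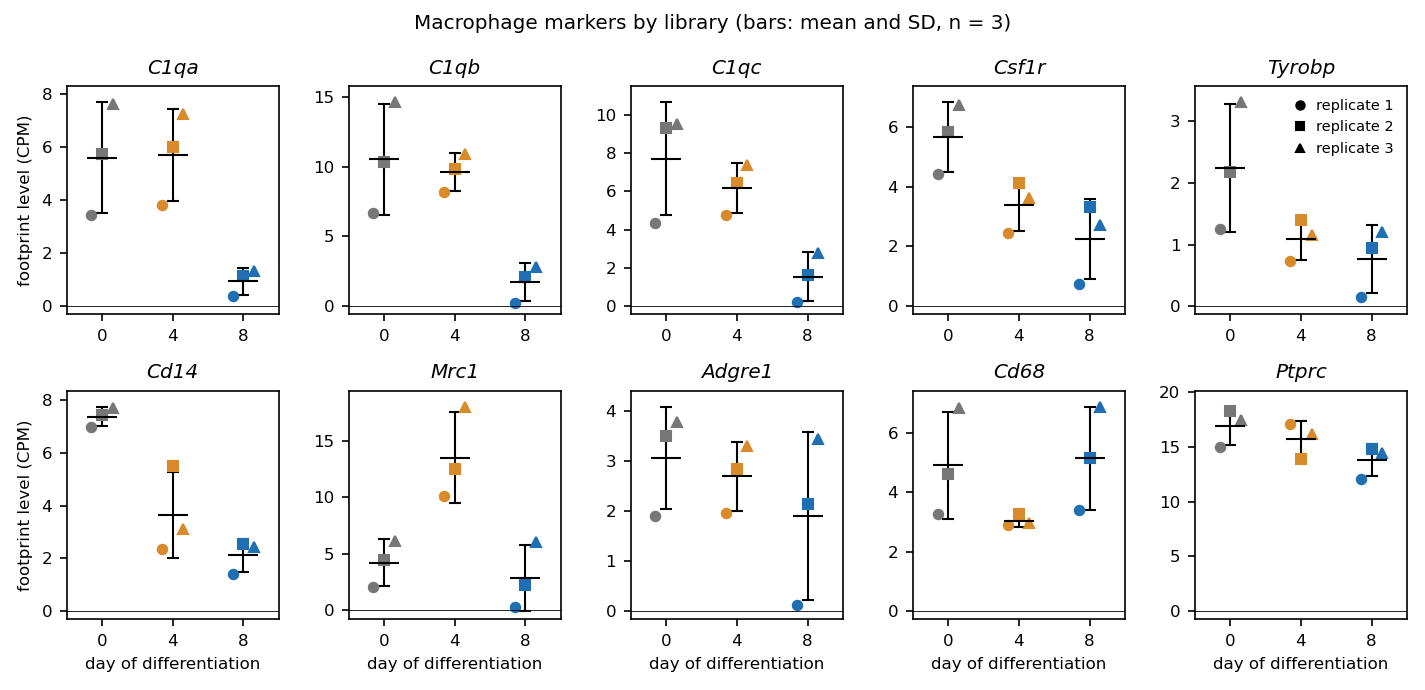
Footprint level (CPM, linear axis) of each marker in each library by day of differentiation, with points for libraries, a horizontal bar for the mean and whiskers for the SD (n = 3). The 3 C1q genes are lowest at day 8, Mrc1 stands at 10.1 to 18.0 CPM at day 4, and Ptprc stays between 12.1 and 18.3 CPM in all 9 libraries.

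The C1q genes encode the 3 chains of C1q, which binds antibody complexes and dying cells and starts the classical complement cascade. All 3 chains are needed for 1 C1q molecule, and macrophages are its main source. In the RefSeq table C1qb, C1qc and C1qa follow each other on chromosome 4 with 0 other genes between them. C1qa (ENSMUSG00000036887) had 3.44, 5.76 and 7.62 CPM at day 0, 3.81, 6.03 and 7.25 CPM at day 4, and 0.363, 1.12 and 1.32 CPM at day 8. The day 8 libraries all lay under those of both earlier days, while days 0 and 4 overlapped. C1qb (ENSMUSG00000036905) had 6.64, 10.3 and 14.6 CPM at day 0, 8.17, 9.8 and 10.9 CPM at day 4, and 0.223, 2.08 and 2.83 CPM at day 8. C1qc (ENSMUSG00000036896) had 4.32, 9.29 and 9.52 CPM at day 0, 4.77, 6.41 and 7.36 CPM at day 4, and 0.223, 1.6 and 2.77 CPM at day 8. The same separation held for both: no day 8 library reached the lowest library of an earlier day.

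At day 8 against day 0 the C1q chains fell 5.02- to 6.13-fold. The log2 fold change of C1qa was -2.58 ± 0.46 (SE, edgeR adjusted p = 0.000666), that of C1qb -2.62 ± 0.59 (adjusted p = 0.00298) and that of C1qc -2.33 ± 0.61 (adjusted p = 0.00671). Against day 4 the log2 fold changes were -2.60 ± 0.46 for C1qa (adjusted p = 0.00315), -2.49 ± 0.59 for C1qb (adjusted p = 0.012) and -2.01 ± 0.61 for C1qc (adjusted p = 0.0314). Day 4 and day 0 were not called apart for any chain, with log2 fold changes of 0.02 ± 0.41, -0.13 ± 0.54 and -0.32 ± 0.56 and adjusted p of 0.968, 0.852 and 0.646. Leaving out each library in turn kept the fall of all 3 chains against day 0 called, with log2 fold changes of -2.89 to -2.19 for C1qa, -3.16 to -2.08 for C1qb and -3.05 to -1.81 for C1qc. The largest move came from day 8 replicate 3, without which C1qc stood at -3.05 against day 0 and -2.75 against day 4. The fall of C1qc against day 4 was no longer called without day 4 replicate 3 (-1.87, adjusted p = 0.0759), without day 8 replicate 2 (-2.05, adjusted p = 0.0871) or with only those 2 days in the fit (adjusted p = 0.0656), in a range of 0.00237 to 0.0871 over the alternatives.

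Summed, the 3 chains came to 14.4, 25.3 and 31.7 CPM at day 0, 16.7, 22.2 and 25.5 CPM at day 4, and 0.81, 4.81 and 6.91 CPM at day 8. C1qb took 40.6% to 48.8% of the counts of the 3 genes in the day 0 and day 4 libraries, and 43.3% and 40.9% in day 8 replicates 2 and 3. The shares of the other chains shifted more: in day 8 replicate 3, C1qc took 40.1% (95% exact Clopper-Pearson interval 33.9% to 46.5%) and C1qa 19.0% (14.3% to 24.5%). In the day 0 and day 4 libraries C1qc took 28.5% to 36.7% and C1qa 22.7% to 28.4%. Day 8 replicate 1 held only 29 counts of the 3 genes, of which 8 were C1qb (27.6%, 12.7% to 47.2%) and 13 were C1qa (44.8%, 26.4% to 64.3%). These intervals cover counting error only. In that library the split among chains rests on very few footprints.

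Csf1r (ENSMUSG00000024621) encodes the receptor for CSF1 and IL-34, on which macrophages depend. It had 4.42, 5.85 and 6.73 CPM at day 0, 2.44, 4.13 and 3.61 CPM at day 4, and 0.726, 3.31 and 2.72 CPM at day 8. Each library of days 4 and 8 lay under each library of day 0, and days 4 and 8 overlapped. At day 8 against day 0 Csf1r fell 2.51-fold (log2 fold change -1.33 ± 0.45, edgeR adjusted p = 0.0226). Day 4 against day 0 gave -0.74 ± 0.44 (adjusted p = 0.171) and day 8 against day 4 gave -0.59 ± 0.45 (adjusted p = 0.34), neither called. The call at day 8 was lost without day 0 replicate 2 (-1.31, adjusted p = 0.053) and without day 0 replicate 3 (-1.19, adjusted p = 0.0727), in a range of 0.00387 to 0.0727 over the alternatives. Day 4 against day 0 was called without day 8 replicate 1 (-0.72, adjusted p = 0.0347) and with only those 2 days in the fit (adjusted p = 0.0465).

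Both ligands of this receptor were measured in the same lysates, and they went opposite ways. Csf1 had 1263, 1297 and 1335 CPM at day 0, 308, 713 and 358 CPM at day 4, and 349, 342 and 623 CPM at day 8. Every library of the later days lay under every day 0 library. Csf1 fell at day 4 (log2 fold change -1.50 ± 0.33, edgeR adjusted p = 0.00324) and at day 8 (-1.57 ± 0.33, adjusted p = 0.00197), both against day 0. Il34 had 1.31, 1.27 and 1.27 CPM at day 0, 1.4, 3.49 and 1.8 CPM at day 4, and 2.54, 3.8 and 5.4 CPM at day 8. It rose at day 8 against day 0 (1.61 ± 0.38, adjusted p = 0.00374), with all later libraries above those of day 0. Ptprz1, a membrane phosphatase that IL-34 also binds, fell at day 4 and day 8 against day 0, with log2 fold changes of -4.18 ± 0.43 (adjusted p = 2.66e-05) and -3.50 ± 0.41 (adjusted p = 4.42e-05).

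**Figure D2:**
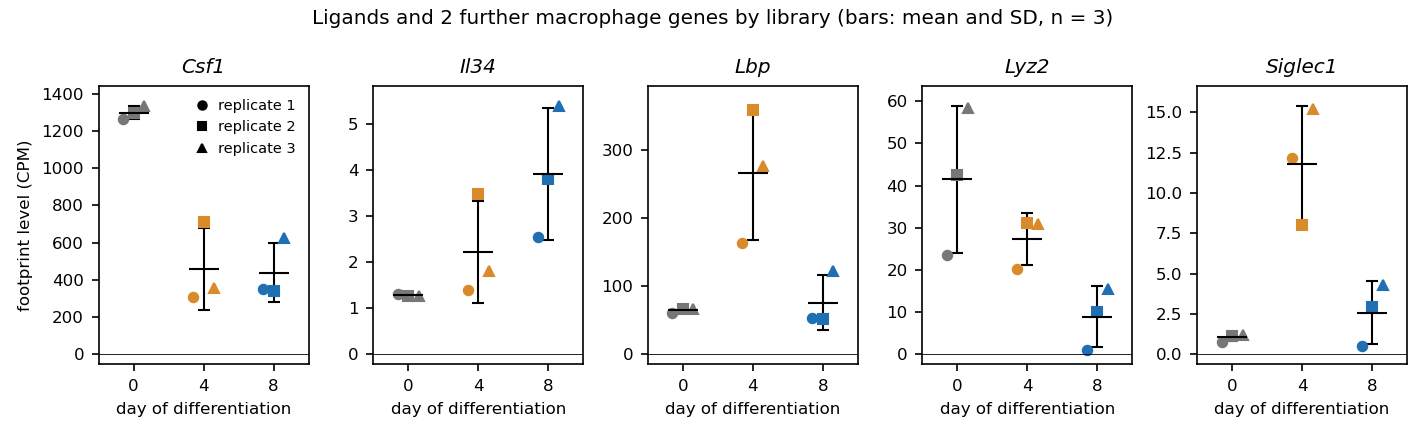
Footprint level (CPM, linear axes) of Csf1, Il34, Lbp, Lyz2 and Siglec1 in each library by day, with points for libraries, a horizontal bar for the mean and whiskers for the SD (n = 3). Csf1 stands at 1263 to 1335 CPM at day 0 and at 308 to 713 CPM later, while Lbp and Siglec1 stand highest at day 4.

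Tyrobp (ENSMUSG00000030579), also called DAP12, is the adaptor through which TREM2 and related myeloid receptors signal to the kinase SYK. It had 1.25, 2.17 and 3.31 CPM at day 0, 0.727, 1.4 and 1.16 CPM at day 4, and 0.14, 0.936 and 1.2 CPM at day 8. The day 8 libraries lay under those of day 0, with the highest of day 8 just under the lowest of day 0, and day 4 overlapped both. Tyrobp fell 2.95-fold at day 8 against day 0 (log2 fold change -1.56 ± 0.60, edgeR adjusted p = 0.0413). This call was lost without day 0 replicate 2 (adjusted p = 0.0754), day 0 replicate 3 (0.159), day 4 replicate 3 (0.0552), day 8 replicate 1 (-1.06, 0.0698) or day 8 replicate 2 (0.0683), in a range of 0.00761 to 0.159. Day 4 against day 0 gave -1.03 ± 0.59 (adjusted p = 0.155) and day 8 against day 4 gave -0.53 ± 0.61 (adjusted p = 0.544).

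Of 7 genes for proteins that work with TYROBP, 4 were tested. At day 4 against day 0, 1 of the 4 was called, higher, and at day 8 against day 0, 1 was called, lower. Of all tested genes, 29.8% were called higher in the former comparison and 33.5% lower in the latter. The list's median log2 fold changes were -0.68 and -0.93. Trem2, a lipid-sensing receptor of macrophages, had 1.52, 2.48 and 2.65 CPM at day 0, 4.42, 3.0 and 4.88 CPM at day 4, and 2.04, 3.45 and 4.51 CPM at day 8. It rose at day 4 against day 0 (log2 fold change 0.88 ± 0.33, edgeR adjusted p = 0.043). That call was lost in 8 of 19 alternatives, among them the fits without each library of day 0, without day 4 replicate 1 or 3 and without day 8 replicate 2, where log2 fold changes were 0.69 to 1.04. Syk fell at day 8 against day 0 (-1.88 ± 0.51, adjusted p = 0.00819), with 15, 19 and 24 counts at day 8 against 57, 82 and 59 at day 0. Fcer1g, the Fc receptor gamma chain and a relative of TYROBP, gave -0.98 ± 0.53 (adjusted p = 0.124) for day 8 against day 0. It was called in the fit with replicate number as a block (-1.09, adjusted p = 0.0417). Trem1, Sirpb1a and Clec5a had at most 22 counts in any library and were not tested.

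Cd14 (ENSMUSG00000051439) encodes the lipopolysaccharide co-receptor that hands bacterial lipid to TLR4. It had 7.0, 7.46 and 7.7 CPM at day 0, 2.36, 5.5 and 3.1 CPM at day 4, and 1.4, 2.54 and 2.41 CPM at day 8. Day 0 was tightly grouped and lay above all later libraries, while days 4 and 8 overlapped. Cd14 fell 2.02-fold at day 4 (log2 fold change -1.01 ± 0.31, edgeR adjusted p = 0.0189) and 3.49-fold at day 8 (-1.80 ± 0.33, adjusted p = 0.000741), both against day 0. The fall at day 8 was called in all 19 alternatives. The fall at day 4 lost its call when 1 of 3 libraries was left out: day 0 replicate 3 (-0.98, adjusted p = 0.0534), day 4 replicate 1 (-0.78, adjusted p = 0.0604) or day 4 replicate 3 (-0.90, adjusted p = 0.0689), in a range of 0.000265 to 0.0689. Day 8 against day 4 gave -0.79 ± 0.33 (adjusted p = 0.0903), and it was called only without day 4 replicate 1 (-1.02, adjusted p = 0.0327).

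Of 9 genes that act with CD14, 8 were tested. At day 4 against day 0, 2 were called higher and 4 lower. At day 8, 3 were called against day 0 and 1 against day 4, all lower. Of all tested genes, 29.8% were called higher and 28.4% lower at day 4 against day 0. At day 8, 33.5% of them were called lower against day 0 and 17.1% against day 4. Lbp encodes the serum protein that loads lipopolysaccharide onto CD14. It had 59.9, 66.4 and 66.8 CPM at day 0, 163, 359 and 276 CPM at day 4, and 52.8, 52.0 and 122 CPM at day 8, so day 4 lay above both other days. Lbp rose at day 4 against day 0 (log2 fold change 2.05 ± 0.36, edgeR adjusted p = 0.000918) and fell at day 8 against day 4 (-1.81 ± 0.36, adjusted p = 0.00545). The receptor Tlr4 fell at day 4 against day 0 (-0.53 ± 0.12, adjusted p = 0.00375), with 15.4, 17.8 and 15.4 CPM against 24.2, 22.0 and 23.8 CPM. Tlr2, which senses bacterial lipoproteins, and its partner Tlr6 fell at day 4 against day 0, by 1.61 (adjusted p = 0.0117) and 1.62 (adjusted p = 0.00245) on the log2 scale. They also fell at day 8 against day 0, by 1.79 (adjusted p = 0.00581, and 2.43 without day 8 replicate 3) and 2.09 (adjusted p = 0.000467). Myd88, the adaptor shared by most Toll-like receptors, had 34.5 to 41.6 CPM in all 9 libraries.

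Mrc1 (ENSMUSG00000026712) encodes the mannose receptor CD206, an uptake receptor of tissue macrophages and also of lymphatic endothelium. It had 2.04, 4.49 and 6.18 CPM at day 0, 10.1, 12.5 and 18.0 CPM at day 4, and 0.307, 2.25 and 6.05 CPM at day 8. Every day 4 library lay above every library of the other days, and days 0 and 8 overlapped. Mrc1 fell 4.72-fold at day 8 against day 4 (log2 fold change -2.24 ± 0.73, edgeR adjusted p = 0.0416). Day 4 against day 0 gave 1.67 ± 0.71, 3.18-fold higher (adjusted p = 0.0674), and day 8 against day 0 gave -0.57 ± 0.73 (adjusted p = 0.506). The fall at day 8 lost its call in the fits without day 0 replicate 2 (adjusted p = 0.0626), day 0 replicate 3 (0.0561), day 4 replicate 3 (0.104), day 8 replicate 1 (-1.71, 0.0542) or day 8 replicate 2 (0.127), or with only days 4 and 8 in the fit (0.0736), in a range of 0.00142 to 0.127. Without day 8 replicate 3 it was -3.40 (0.00915). The difference of day 4 from day 0 was called in 7 alternatives, among them the fits without day 8 replicate 1 (1.69, adjusted p = 0.0121), without day 8 replicate 3 (1.69, 0.0262), with only days 0 and 4 (1.70, 0.00714) and with replicate number as a block (1.83, 0.0141). Without both day 4 replicate 2 and day 8 replicate 3, Mrc1 was also called lower at day 8 than at day 0 (-1.72, adjusted p = 0.024).

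A few other macrophage genes stood highest at day 4 as well. Mertk, a receptor for the engulfment of dying cells, had 3.26, 4.18 and 4.2 CPM at day 0, 22.0, 16.9 and 22.7 CPM at day 4, and 5.5, 7.27 and 7.73 CPM at day 8. It rose at day 4 against day 0 (log2 fold change 2.40 ± 0.19, edgeR adjusted p = 5.1e-06) and fell at day 8 against day 4 (-1.59 ± 0.18, adjusted p = 0.00046), with no overlap of libraries in either comparison. Siglec1 and Lyve1 were picked after their values had been seen. Siglec1, the sialic acid receptor CD169 of tissue macrophages, had 0.761, 1.15 and 1.21 CPM at day 0, 12.2, 8.04 and 15.2 CPM at day 4, and 0.502, 2.94 and 4.31 CPM at day 8. It rose at day 4 against day 0 (3.50 ± 0.61, adjusted p = 0.000775). Lyve1, a hyaluronan receptor of lymphatic endothelium and of some macrophages, had 35, 20 and 60 counts at day 4, against 2, 9 and 5 counts at day 0 (2.75 ± 0.62, adjusted p = 0.00355, and 3.38 without day 0 replicate 2). Of 12 endothelial genes 9 were tested. At day 4 against day 0, 0 were called higher and 2 lower, where 29.8% and 28.4% of all tested genes were. Their levels differed widely. Flt1 had 9.3, 26.4 and 12.4 CPM at day 4 against 24, 29.8 and 42.5 CPM at day 0. Tek had 4.04, 13.8 and 4 CPM at day 4 against 15.2, 11.9 and 20.1 CPM at day 0. Pecam1 had 0.901 to 1.67 CPM in all 9 libraries. Cdh5, the cadherin of endothelial junctions, had 17, 12 and 8 counts at day 4 against 34, 45 and 39 at day 0. The part of other cell types in the level of Mrc1 was not tested.

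**Figure D3:**
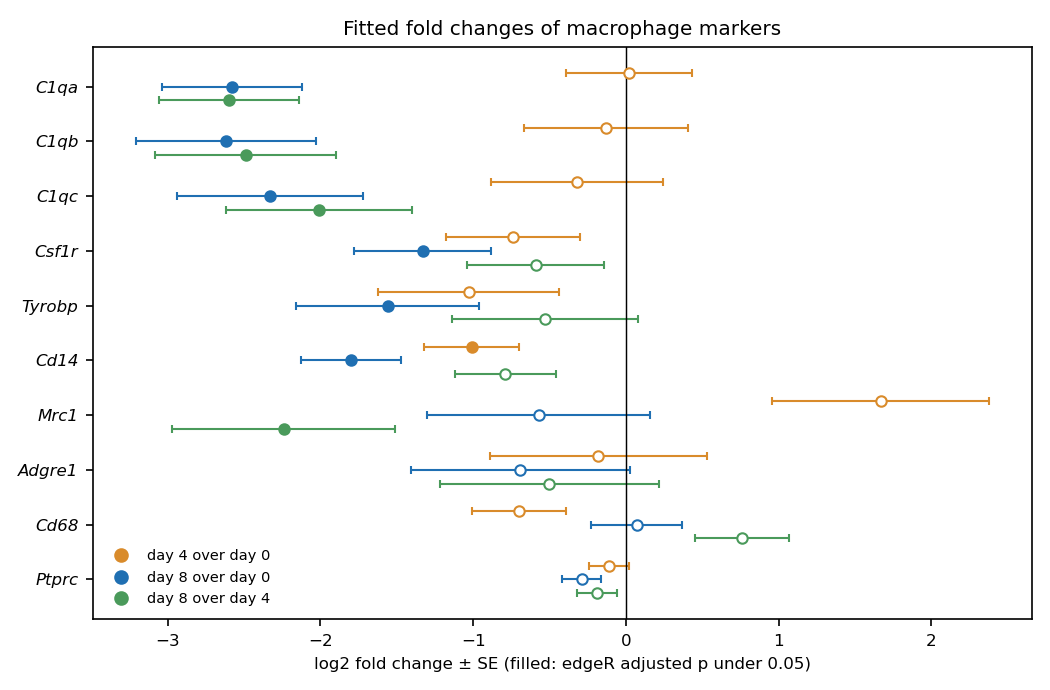
Fitted log2 fold change of each marker in each comparison, later day over earlier day, with whiskers for 1 SE and filled points where the edgeR adjusted p was under 0.05. The C1q genes lie near 0 at day 4 against day 0 and between -2.62 and -2.01 in both comparisons of day 8.

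Adgre1 (ENSMUSG00000004730) encodes F4/80, the surface receptor by which mouse macrophages are commonly sorted. It had 1.89, 3.5 and 3.78 CPM at day 0, 1.95, 2.83 and 3.3 CPM at day 4, and 0.112, 2.14 and 3.44 CPM at day 8. The 3 days overlapped, and day 8 replicate 1, with 4 counts (95% exact Poisson interval 1.09 to 10.2), stood far under the other libraries. No comparison was called: log2 fold changes were -0.18 ± 0.71 at day 4 against day 0, -0.69 ± 0.72 at day 8 against day 0 and -0.50 ± 0.72 at day 8 against day 4, with edgeR adjusted p of 0.841, 0.417 and 0.627. Without day 8 replicate 1 the value for day 8 was -0.12 against day 0 and 0.04 against day 4, and without day 8 replicate 3 it was -1.42 and -1.25. With limma-voom it was -1.58 against day 0 and -1.43 against day 4. An SE of this size leaves room for changes in either direction.

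Cd68 (ENSMUSG00000018774) encodes a lysosomal membrane protein that is abundant in phagocytes and is also made, at lower levels, by fibroblasts. It had 3.26, 4.61 and 6.84 CPM at day 0, 2.88, 3.25 and 2.96 CPM at day 4, and 3.41, 5.16 and 6.86 CPM at day 8. The day 4 libraries lay under those of days 0 and 8, and days 0 and 8 spanned nearly the same range. No comparison was called by edgeR. Log2 fold changes were -0.70 ± 0.31 at day 4 against day 0 (adjusted p = 0.0781), 0.07 ± 0.30 at day 8 against day 0 (adjusted p = 0.858) and 0.76 ± 0.31 at day 8 against day 4 (adjusted p = 0.0863). The difference at day 4 against day 0 was called with library totals as the scaling (-0.84, adjusted p = 0.0353), with upper quartile scaling (-0.82, adjusted p = 0.0431), without day 0 replicate 1 (-0.91, adjusted p = 0.0331) and without both libraries that stood apart (-0.75, adjusted p = 0.0457). That at day 8 against day 4 was called with library totals (0.90, adjusted p = 0.0443) and with DESeq2 (0.77, adjusted p = 0.0499). The adjusted p of day 4 against day 0 ranged from 0.0331 to 0.33 over the alternatives.

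Ptprc (ENSMUSG00000026395) encodes CD45, the phosphatase on the surface of nearly all leukocytes, macrophages and lymphocytes alike. It had 15.0, 18.3 and 17.5 CPM at day 0, 17.1, 13.9 and 16.2 CPM at day 4, and 12.1, 14.8 and 14.5 CPM at day 8. Each day 8 library lay under each day 0 library by a small margin, and day 4 overlapped both. Log2 fold changes were -0.11 ± 0.13 (adjusted p = 0.514) at day 4 against day 0, -0.29 ± 0.13 (edgeR adjusted p = 0.0747) at day 8 against day 0 and -0.19 ± 0.13 (adjusted p = 0.312) at day 8 against day 4. The difference of day 8 from day 0 was called with upper quartile scaling (-0.40, adjusted p = 0.0243), without day 4 replicate 2 (-0.29, adjusted p = 0.0477) and without both libraries that stood apart (-0.32, adjusted p = 0.045), in a range of 0.0243 to 0.265. The highest library exceeded the lowest 1.51-fold, where the ratio was 65.4 for C1qb, 58.6 for Mrc1 and 2.38 for Cd68.

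The summed level of T lymphocyte genes varied little between libraries. The 12 T cell genes summed to 30.8 to 40.1 CPM in the 9 libraries. Of these genes 10 were tested and 1, Trac, was called in any comparison. The share of all tested genes called was 58.2% at day 4 against day 0 and 67.7% at day 8 against day 0. It was 31.8% at day 8 against day 4. Cd3e and Cd3d, chains of the T cell receptor complex, had 4.08 to 6.41 CPM and 4.32 to 5.55 CPM. Gzmb, a granule protease of killer lymphocytes, had 10.6 to 12.9 CPM. Trac, the constant part of the T cell receptor alpha chain, fell at day 8 against day 0 (log2 fold change -0.65 ± 0.15, edgeR adjusted p = 0.00353), with 4.3, 4.81 and 3.92 CPM against 7.13, 7.0 and 6.32 CPM. Coro1a, a coronin of leukocytes, had 15.5 to 19.9 CPM. The part of lymphocytes in the footprints on Ptprc was not tested.

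**Figure D4:**
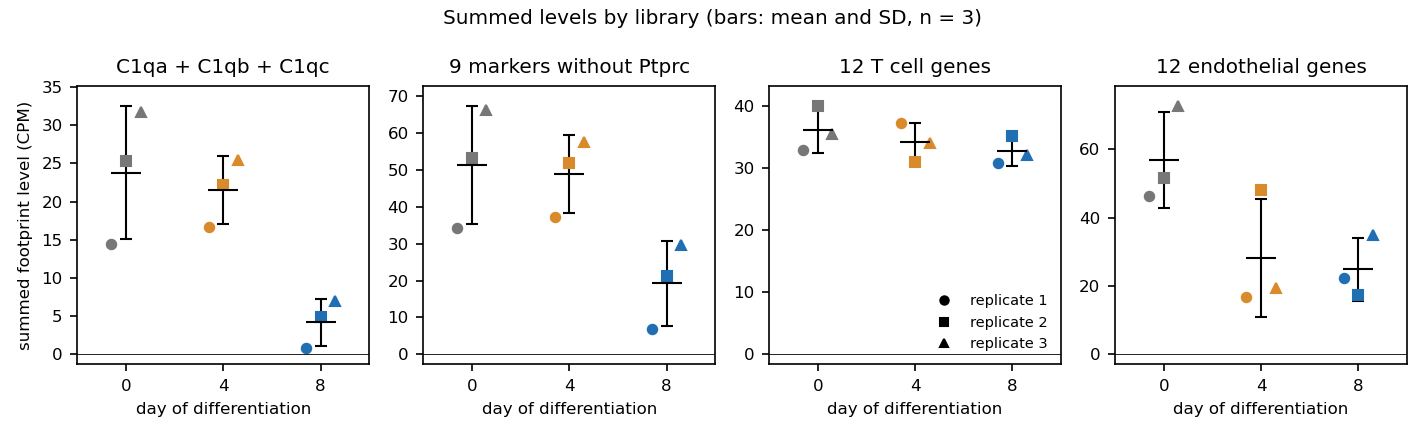
Summed footprint level (CPM, linear axes from 0) of the 3 C1q genes, the 9 markers other than Ptprc, 12 T cell genes and 12 endothelial genes in each library by day, with points for libraries, a horizontal bar for the mean and whiskers for the SD (n = 3). The 9 markers sum to 6.9 to 29.6 CPM at day 8, while the T cell genes stay between 30.8 and 40.1 CPM throughout.

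Within each day the markers nearly all shared their lowest library, and at day 0 nearly all shared their highest as well. Replicate 1 had the lowest level of 10 of 10 markers at day 0, of 9 of 10 at day 4 and of 10 of 10 at day 8, where 33.8%, 31.7% and 30.1% of all tested genes were lowest in replicate 1. The exception was Ptprc at day 4, lowest in replicate 2. Replicate 3 had the highest level of 9, 5 and 7 markers at days 0, 4 and 8. Because most markers varied together, these counts are not made of independent genes. Day 8 replicate 1 stood farthest out: its log2 level was -2.69 from its day's mean for Adgre1, -2.24 for Mrc1, -2.10 for C1qb, -1.97 for C1qc and -1.67 for Tyrobp, but only -0.53 for Cd14 and Cd68 and -0.18 for Ptprc. After each day's mean had been subtracted, the correlation over the 9 libraries had a median of 0.92 among the 36 pairs without Ptprc, from 0.52 to 0.99. For the 9 pairs with Ptprc it ran from -0.05 to 0.67. No such value was computed over all pairs of tested genes, or for the markers without day 8 replicate 1. That library held the largest deviation of most markers and so weighs on these correlations. Genes outside the markers also reached high values, such as Edem3 with C1qb (0.96) and Kifc1 with Cd14 (0.95). These correlations describe libraries that share depth and scaling, and genes counted in the same library are not independent. The 9 markers without Ptprc summed to 34.3, 53.4 and 66.3 CPM at day 0, 37.2, 51.9 and 57.6 CPM at day 4, and 6.9, 21.1 and 29.6 CPM at day 8. Without day 8 replicate 1, the log2 fold changes of day 8 against day 0 were -2.19 for C1qa, -2.08 for C1qb, -1.81 for C1qc, -1.57 for Cd14 and -0.90 for Csf1r, and these 5 stayed called. Tyrobp did not (-1.06, adjusted p = 0.0698).

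**Figure D5:**
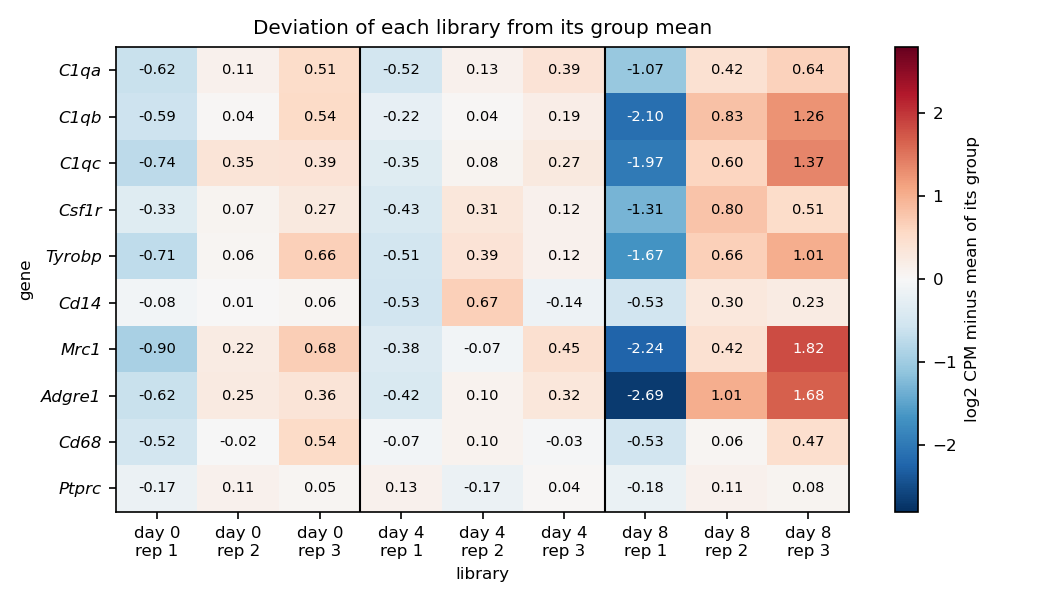
Difference of each library's log2 CPM from the mean of its day, for the 10 markers (rows) in the 9 libraries (columns), with the value printed in each cell and colour from blue (under the mean) to red (above it). Day 8 replicate 1 is under its day's mean for all 10 markers, by 2.69 for Adgre1 and by 0.18 for Ptprc.

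Macrophage and myeloid genes beyond the 10 markers were mixed in direction. Of 43 such genes, 31 were tested: 5 were called higher and 8 lower at day 4 against day 0, 4 higher and 10 lower at day 8 against day 0, and 3 higher and 4 lower at day 8 against day 4. Their median log2 fold changes were -0.48, -0.98 and -0.20. Of all tested genes, 29.8%, 34.2% and 14.7% were called higher in these comparisons, and 28.4%, 33.5% and 17.1% lower. Several defining genes were close to absent: Cd163 had at most 4 counts, Fcgr1 at most 7 and Itgam at most 6 in any library, and Cx3cr1 at most 16. Lyz2, the lysozyme of macrophages, was picked after its values had been seen. It had 23.5, 42.6 and 58.3 CPM at day 0, 20.3, 31 and 30.9 CPM at day 4, and 1.06, 10.1 and 15.4 CPM at day 8. It fell at day 8 against day 0 (log2 fold change -2.23 ± 0.68, edgeR adjusted p = 0.0143), lost its call when day 0 replicate 3 was left out (-1.90, adjusted p = 0.0523, in a range of 0.000466 to 0.0523) and stood at -2.87 when day 8 replicate 3 was left out.

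Lgmn, Cd9 and Gpnmb of that list were abundant, and they are known in fibroblasts as well as in macrophages. Lgmn, a lysosomal protease, fell at day 8 against day 0 (log2 fold change -1.22 ± 0.25, edgeR adjusted p = 0.00154), with 166, 183 and 203 CPM against 387, 451 and 449 CPM. Cd9, a tetraspanin, fell likewise (-2.15 ± 0.36, adjusted p = 0.000472), as did Gpnmb, a glycoprotein of lysosome-rich cells (-1.69 ± 0.43, adjusted p = 0.00552). H2-Ab1, a chain of MHC class II, rose at day 8 against day 0 (3.30 ± 0.46, adjusted p = 0.000151), with 43.3, 42.3 and 37.0 CPM against 4.11, 4.64 and 3.73 CPM. Its partner chain H2-Aa had at most 10 counts in any library. H2-Eb1, a chain of another class II molecule, rose at day 8 against day 0 (2.44 ± 0.48, adjusted p = 0.00119). Cd74, the invariant chain of MHC class II, fell at day 4 (-2.12 ± 0.31, adjusted p = 0.00027) and at day 8 (-1.02 ± 0.29, adjusted p = 0.0106) against day 0.

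Of 21 genes used by leukocytes in general, all 21 were tested. At day 4 against day 0, 6 were called, and at day 8 against day 0, 6 were called, all lower. In each, 15 were not called. Of all tested genes, 58.2% and 67.7% were called in these comparisons, 28.4% and 33.5% lower. The median log2 fold changes of the 21 were -0.35 and -0.41, and -0.09 at day 8 against day 4. Lsp1, an actin-binding protein of leukocytes, fell at day 4 (log2 fold change -2.75 ± 0.20, edgeR adjusted p = 3.15e-06) and at day 8 (-3.30 ± 0.21, adjusted p = 1.22e-06) against day 0. Its levels were 8.46, 13.0 and 7.95 CPM at day 4 and 6.06, 6.04 and 8.01 CPM at day 8, against 64.0, 61.8 and 71.8 CPM at day 0. Arhgdib, a cytosolic protein abundant in leukocytes, fell by 1.75 at day 4 (adjusted p = 0.000137) and by 2.41 at day 8 (adjusted p = 1.65e-05) on the log2 scale. Cd53, a tetraspanin of leukocytes, fell by 1.17 at day 4 (adjusted p = 0.000147) and by 1.26 at day 8 (adjusted p = 6.86e-05). In other blood cell lists, 1 of 8 B cell genes, 1 of 8 mast cell genes, 2 of 8 dendritic cell genes, 3 of 12 neutrophil genes and 1 of 7 erythroid genes had enough counts to be tested. The dendritic cell genes summed to 3.78, 4.4 and 4.8 CPM at day 0, 6.19, 8.89 and 5.84 CPM at day 4, and 9.04, 9.38 and 8.73 CPM at day 8. Most of that sum lay in its 2 tested genes. Zbtb46 had 3.69, 4.18 and 4.75 CPM at day 0 and 6.98, 7.46 and 6.55 CPM at day 8. Clec10a had 0, 0.124 and 0 CPM at day 0 and 1.51, 1.71 and 1.85 CPM at day 8. Of 9 genes of natural killer and innate lymphoid cells 6 were tested, and 2, Gata3 and Il1rl1, were called lower at day 4 and at day 8 than at day 0. Among all tested genes 28.4% and 33.5% were called lower in these comparisons. The list of 9 genes summed to 67.9, 55.7 and 117 CPM at day 0, 21, 22.6 and 18 CPM at day 4, and 17.3, 18.5 and 20.6 CPM at day 8. Most of its fall lay in Il1rl1 alone. Il1rl1 had 50.4, 34.9 and 99.3 CPM at day 0, 2.44, 5.75 and 0.62 CPM at day 4, and 1.56, 0.695 and 3.78 CPM at day 8. Gzmb, of the same list, stayed between 10.6 and 12.9 CPM. The part of these cell types in the marker levels was not tested.

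C1q works with serum proteases and later complement factors, many of which adipose cells make themselves. A list of 12 genes held such factors and C1qbp, and 10 were tested. At day 4 against day 0, 4 were called higher and 3 lower, with the same numbers at day 8 against day 0. At day 8 against day 4, 1, C1qbp, was called, lower. Of all tested genes, 29.8%, 34.2% and 14.7% were called higher in these comparisons, and 28.4%, 33.5% and 17.1% lower. C3, the central component, had 18.1, 16.1 and 34.4 CPM at day 0, 1085, 582 and 1289 CPM at day 4, and 288, 448 and 824 CPM at day 8. It rose at day 4 (log2 fold change 5.43 ± 0.52, edgeR adjusted p = 1.71e-05) and at day 8 (4.51 ± 0.50, adjusted p = 3.27e-05) against day 0. C4b, which the C1 complex cleaves, rose at day 4 (0.84 ± 0.24, adjusted p = 0.0134) and at day 8 (1.40 ± 0.24, adjusted p = 0.000594). C1ra, a protease of the C1 complex, had 23.9 to 39.9 CPM in the 9 libraries and was not called. Cfi, a protease that inactivates C3b and C4b, fell by 1.92 at day 4 (adjusted p = 0.000649) and by 2.29 at day 8 (adjusted p = 0.000189) on the log2 scale, both against day 0. C1qbp, whose product was named for binding C1q but resides mainly in mitochondria, rose at day 4 (1.26 ± 0.12, adjusted p = 1.63e-05). It was 1 of the 4 called higher at day 4 and at day 8 against day 0. At day 8 against day 4 it fell (-0.56 ± 0.12, adjusted p = 0.00704).

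The genes most like each marker were found by the correlation of log2 CPM over the 9 libraries, among the 12046 genes that averaged 20 counts or more. The points share their libraries and 3 days, so that many unrelated genes also reach high values. For C1qb the closest were C1qc (r = 0.991), Edem3 (0.984) and Lyz2 (0.981), and for C1qc they were C1qb (0.991), Lyz2 (0.991) and Calml4 (0.990). For C1qa they were Usp34 (0.975), C1qb (0.973) and Trrap (0.972). Csf1r was most like C5ar1 (0.979), Tyrobp (0.977) and Alox5ap (0.966), and Tyrobp most like Adam8 (0.982), Csf1r (0.977) and C5ar1 (0.969). C5ar1 encodes the receptor for complement fragment C5a on myeloid cells, and Alox5ap a partner of the leukotriene-making enzyme. Adgre1 was most like Fcer1g (0.967), Myo1g (0.946) and Lyz2 (0.932), and Ptprc most like Tnfaip8l2 (0.933), Coro1a (0.920) and Taf13 (0.918). Other markers had neighbours with no known tie to leukocytes at the top: Kifc1 (0.990) for Cd14, Gtf3c5 (0.945) for Cd68 and Tbl1x (0.941) for Mrc1.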

How the data were processed

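Per the submitters' processing notes, cutadapt, HISAT2, featureCounts and GRCm39 were used. The deposited values are raw whole-number counts per gene and library. Versions, the strand setting and multi-mapping treatment: not given in the sources used here. Reads of overlapping or antisense genes cannot be told apart. All 9 columns matched a labelled library. No library pair was alike within sampling noise.

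Genes were filtered with filterByExpr (minimum count 10) and counts scaled by TMM. edgeR 4.0.16 (R 4.3.3) fitted a quasi-likelihood model to the 9 libraries with group as the only term. P-values were Benjamini-Hochberg adjusted over 14714 genes, with calls under 0.05. The SE was derived from the F statistic. The method was tested on simulated data. Alternatives changed the scaling, filter, tool (DESeq2 1.42.0, limma 3.58.1 voom), libraries fitted and replicate block, and left out each library.

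Markers, lists and the promoter motif were chosen with earlier results of these data known. The markers are named throughout. Of other lists, up to 4 genes with the smallest adjusted p and up to 3 with the highest CPM are named, and any partner of Csf1r, Tyrobp or Cd14 or complement gene. Of like patterns, the 3 highest correlations (prior count 2) are named, without predicted genes. Not all genes the rule takes are reported here.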

Additional observations from a re-analysis of the deposited data

How the results depend on the processing

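Of 30 marker fold changes, 11 were called, and 6 of these (C1qa, C1qb, C1qc and Cd14 at day 8 against day 0, C1qa and C1qb at day 8 against day 4) stayed called in all 19 alternatives. None of the 11 reversed. Markers called at day 4 against day 0 numbered 1, and 2 with library totals, upper quartile scaling, no low-count filter, limma-voom or a replicate block. Of all genes tested 58.2% were called in the main fit. In these settings, in that order, 60.4%, 60.2%, 31.4%, 58.8% and 56.3% were called. Called markers numbered 3 with only the groups compared (56.1% of all genes). They also numbered 3 without day 4 replicate 2 and day 8 replicate 3 (66.6%), a setting chosen after seeing the data. Leaving out 1 library gave 0 to 3, with 48.3% to 63.7% of all genes called. At day 8 against day 4 called markers numbered 2 with only the groups compared (23.4% of all genes). With 1 library left out they numbered 2 to 5 (18% to 32.5%), and at day 8 against day 0, 4 to 7 (60.8% to 70.9%). All genes called ranged over left-out libraries from 7289 to 9609 at day 4 against day 0, 9135 to 10693 at day 8 against day 0 and 2706 to 4899 at day 8 against day 4, lowest without day 8 replicate 1; without day 4 replicate 2 and day 8 replicate 3 the last was 5481.

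Only uncalled values changed sign. C1qa at day 4 against day 0 was -0.13 with library totals, -0.11 with upper quartile scaling, -0.02 without day 4 replicate 2 and day 8 replicate 3, and -0.22 to 0.31 with 1 library left out. Left-out libraries gave -0.36 to 0.19 for C1qb and -0.42 to 0.01 for Adgre1 in that comparison, and -1.25 to 0.04 for Adgre1 at day 8 against day 4. Cd68 at day 8 against day 0 was -0.04 with upper quartile scaling, -0.19 without day 4 replicate 2 and day 8 replicate 3, and -0.18 to 0.39 with 1 library left out.

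Over all genes, replicate numbers did not pair the libraries: the correlation of same-numbered deviations ran from -0.20 to 0.19. Replicate 1 was lowest for 10, 9 and 10 of 10 markers. The markers other than Ptprc varied together within days (median correlation 0.92), so they are not separate readings of the order of replicates. With a replicate block, 2, 6 and 4 markers were called in the 3 comparisons, where 56.3%, 66.1% and 27.7% of all genes tested were called.

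Library totals and upper quartile scaling moved the median log2 fold change of all genes at day 4 against day 0 to -0.17 and -0.14, and library totals moved it to 0.12 at day 8 against day 4. Of genes called at day 4 against day 0, 51.2% were higher, and 41.9% and 43.2% with these scalings. At day 8 against day 4, 46.2% were higher, and 65.9% with library totals. In day 8 replicate 1, of similar depth to the others, 6 markers held 4 to 13 counts, which limits their precision.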
